A study of Mus musculus with 6 samples.

Results

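TRAJ31 is 1 of the J segments that a T cell can join to a V segment when it assembles the gene of its T cell receptor (TCR) α chain. All productive TCRα contigs (TRA contigs) annotated with TRAJ31 were chosen by that annotation, whatever their V gene, and there were 179 of them among 1123 productive TRA contigs of 3 single-cell TCR libraries. They came from 179 of the 999 cells with a productive TRA, 1 per cell, and comprised 54 of 765 distinct rearrangements, where a rearrangement is a V gene with a CDR3 nucleotide sequence. TRAJ31 was chosen with its frequency in these libraries known, so its abundance is given as a description.

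The cells were P2+CD4+ T cells, that is, CD4 T cells sorted from lymph nodes for binding a tetramer of the P2 peptide of the retinal protein IRBP on MHC class II. All mice were AireGW/+Lyn-/- at 9 wk of age. They carried 1 copy of a dominant Aire mutation, which impairs the display of tissue antigens in the thymus, and lacked the kinase Lyn. Cells of several mice were pooled for each library, 2 libraries from mice with uveitis (uveitis dataset 1 and uveitis dataset 2) and 1 from mice without uveitis (no uveitis). The paper gives more mice for the pool without uveitis than for either uveitis pool. Numbers of V genes, families and clonotypes below were not adjusted for this. Because each pool is 1 sample and 1 group has a single pool, no test between the groups was possible and no p-value is given. The tetramer gate itself selects TCRs, and no unsorted T cells were analysed here, so the values describe P2-binding cells only. The mRNA libraries of the same cells were not used here, so the cell type was not checked against marker genes beyond the TCR itself. The libraries held 186, 330 and 483 cells with a productive TRA, named in the order dataset 1, dataset 2 and no uveitis, which is kept below. Between 5302 and 21408 unique molecular identifiers (UMIs, tags that count RNA molecules) lay behind all contigs of a library. No cell barcode with a TRAJ31 chain was shared between libraries. Intervals in parentheses are exact 95% Clopper-Pearson intervals, which cover counting error only and not the differences between mice or pools.

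The α chain gene is made by joining 1 of many V segments to 1 of many J segments. At the joint, enzymes trim the ends, add short mirror copies of the V or J end left by hairpin opening (P nucleotides) and add random bases (N nucleotides). The joint encodes the third complementarity-determining region (CDR3), the loop that lies closest to the peptide in the MHC groove, while the V segment also encodes the first and second loops. The J segment supplies the last part of the CDR3. TRAJ31 lies on chromosome 14 of GRCm38, from 54187895 to 54187951 on the plus strand, downstream of the V segments. The 29 V genes joined to it here lay between 52654817 and 53676630 on the same strand.

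The germline segments show what the rearrangements start from. The TRAJ31 segment of the GENCODE annotation is printed with the bases that fall within a CDR3 in capitals, which encode NSNNRIFF after an incomplete first codon. The ends of the V genes that recur below follow, each from the codon of the conserved cysteine.
TRAJ31: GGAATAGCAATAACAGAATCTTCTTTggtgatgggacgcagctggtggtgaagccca
TRAV9-1, TRAV9-4 and TRAV9D-1: tgtgctgtgagcg
TRAV9-2: tgtgttttgagcg
TRAV9N-4: tgtgctctgagca
TRAV12-2: tgtgctttgagtga

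The CDR3 nucleotide sequences that carry the main observations are shown next, for the chains that recurred between libraries, had more than 1 nucleotide version or were found in most cells. Lower case marks bases equal to the germline V end (left) or to TRAJ31 (right), and capitals mark the bases that matched neither.
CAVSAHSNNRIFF, TRAV9-4, all 3 libraries: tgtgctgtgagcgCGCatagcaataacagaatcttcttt
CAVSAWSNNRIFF, TRAV9-1, TRAV9-4 and TRAV9D-1, both uveitis libraries: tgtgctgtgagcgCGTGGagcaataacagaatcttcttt
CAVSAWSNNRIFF, TRAV9-4, dataset 2: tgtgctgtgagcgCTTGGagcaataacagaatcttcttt
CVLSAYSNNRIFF, TRAV9-2, dataset 2 and no uveitis: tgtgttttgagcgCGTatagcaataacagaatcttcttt
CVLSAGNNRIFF, TRAV9-2, dataset 1: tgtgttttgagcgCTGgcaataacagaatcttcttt
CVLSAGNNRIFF, TRAV9-2, no uveitis: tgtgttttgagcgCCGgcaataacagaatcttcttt
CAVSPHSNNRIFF, TRAV9-4, dataset 1: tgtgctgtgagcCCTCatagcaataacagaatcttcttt
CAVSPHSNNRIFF, TRAV9-4, dataset 1: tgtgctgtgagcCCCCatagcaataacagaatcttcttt
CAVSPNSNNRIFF, TRAV9-1, dataset 1: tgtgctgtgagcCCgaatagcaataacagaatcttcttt
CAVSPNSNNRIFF, TRAV7N-4, dataset 2: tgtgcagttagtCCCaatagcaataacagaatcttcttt
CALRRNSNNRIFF, TRAV12-3, dataset 1: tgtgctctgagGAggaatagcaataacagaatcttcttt
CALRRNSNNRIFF, TRAV12D-3, no uveitis: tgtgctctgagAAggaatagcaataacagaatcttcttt
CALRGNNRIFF, TRAV12-2, dataset 2: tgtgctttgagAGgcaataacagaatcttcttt

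TRAJ31 was the J gene found in the most cells of every library. It was carried by 23 of 186 cells in dataset 1, or 12.4% (8.003 to 17.97%). In dataset 2 it was carried by 118 of 330 cells, or 35.8% (30.6 to 41.2%). Without uveitis it was carried by 38 of 483 cells, or 7.87% (5.63 to 10.6%). The uveitis libraries had a mean of 24.1% ± 16.5 (SD, n = 2 pools), and the gap of 23.4 percentage points between them was larger than the distance of dataset 1 from the library without uveitis, whose intervals overlapped.

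Counted once per rearrangement, the abundance was more even. TRAJ31 supplied 15 of 149 rearrangements in dataset 1, or 10.1% (5.74 to 16.1%), 14 of 144 in dataset 2, or 9.72% (5.42 to 15.8%), and 29 of 478 without uveitis, or 6.07% (4.10 to 8.60%). It was again first among the J genes in each library, of which 40, 42 and 43 were seen. All 3 intervals overlapped. Without uveitis, TRAJ37 with 28 rearrangements and TRAJ23 with 27 were close behind, so their order was within counting error. Counted by clonotypes, that is, groups of cells alike in V, J and CDR3 nucleotides of the α and the β chain, TRAJ31 made up 16 of 154 in dataset 1, or 10.4%, 21 of 155 in dataset 2, or 13.5%, and 27 of 473 without uveitis, or 5.71%. TRAJ37 had 28 clonotypes without uveitis, so TRAJ31 was not first there on this count. In dataset 2, cells with both of a recurring pair of β chains fell into separate clonotypes, as described with the cells of more than 1 TRB.

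TRAJ31 was joined to 29 V genes of 10 families, out of 19 families found in any TRA. The 4 families TRAV6, TRAV7, TRAV9 and TRAV12 were joined to it in all 3 libraries. Dataset 1 held 6 families, dataset 2 held 5 and the library without uveitis held 9, over 10, 8 and 22 V genes. TRAV9 family genes were used by 17 of 23 TRAJ31 cells in dataset 1, or 73.9% (51.6 to 89.8%), and by 105 of 118 in dataset 2, or 89.0% (81.9 to 94.0%). Without uveitis they were used by 14 of 38, or 36.8% (21.8 to 54.0%). The mean of the uveitis libraries was 81.4% ± 10.7 (SD, n = 2 pools). The interval without uveitis overlapped that of dataset 1 and lay below that of dataset 2.

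By rearrangement, where a large clonotype counts once, TRAV9 genes supplied 9 of 15 TRAJ31 rearrangements in dataset 1, or 60% (32.3 to 83.7%), and 9 of 14 in dataset 2, or 64.3% (35.1 to 87.2%). Without uveitis they supplied 6 of 29, or 20.7% (7.99 to 39.7%). The uveitis libraries lay close together on this count, at 62.1% ± 3.03 (SD, n = 2 pools), and both were above the library without uveitis, with intervals that overlapped. Combined, the uveitis libraries gave 16 of 27, or 59.3% (38.8 to 77.6%), an interval whose lower end lay just below the upper end of the one without uveitis. Most TRAJ31 rearrangements without uveitis therefore used another V family, 23 of 29.

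**Figure D1:**
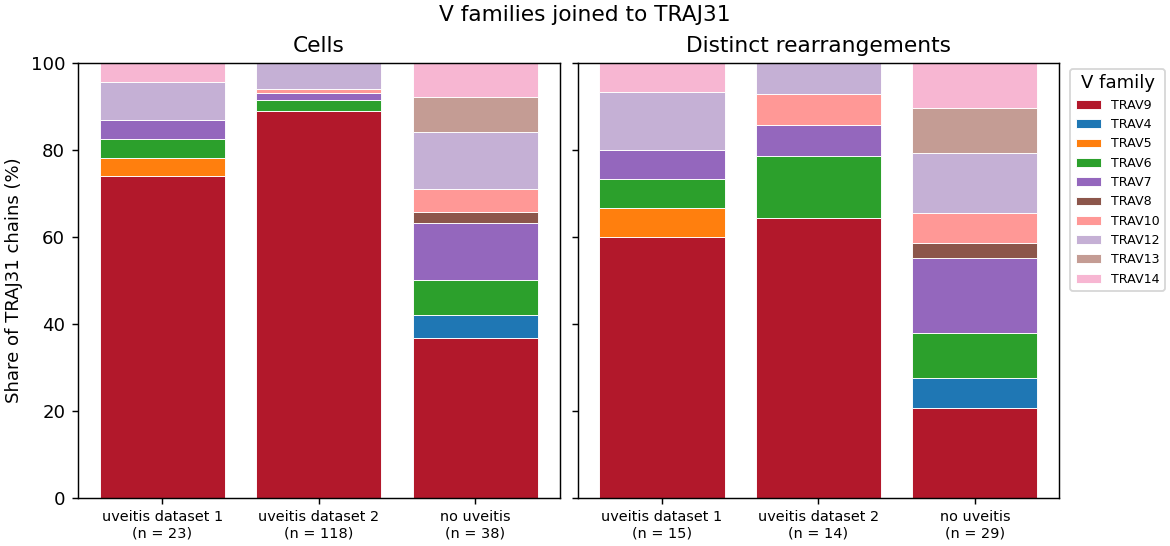
Stacked bars give the share of TRAJ31 chains joined to each V family, in percent, counted by cells (left) and by distinct rearrangements (right), for uveitis dataset 1, uveitis dataset 2 and no uveitis. TRAV9 (dark red, bottom) takes 73.9, 89.0 and 36.8% of the cells but 60, 64.3 and 20.7% of the rearrangements.

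The TRAV9 genes were not equally used. TRAV9-4 (chromosome 14, 53676141 to 53676630) was joined to TRAJ31 in 10, 57 and 3 cells, TRAV9-1 (53488045 to 53488567) in 2, 42 and 2 cells, and TRAV9-2 (53590857 to 53591514) in 4, 3 and 8 cells. TRAV9D-1 (52792316 to 52792777) was seen in dataset 2 only, in 3 cells. In dataset 2, TRAV9-4 and TRAV9-1 together held nearly all of the TRAV9 cells, and without uveitis TRAV9-2 held the most.

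These names have a limit, since the CDR3 ends of TRAV9-1, TRAV9-4 and TRAV9D-1 are identical and the caller told them apart by the rest of the V segment. The named gene had the best CDR3 match, or tied for it, in 54 of 58 rearrangements counted per library. In 3 rearrangements another V gene matched at least 3 bases more, among them a TRAV9-2 chain of dataset 1 with the CDR3 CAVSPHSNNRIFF, where 4 bases matched TRAV9-2 and 12 matched TRAV9-1 or TRAV9-4. Of 15 pairs of a TRAJ31 CDR3 and a TRB that were found in more than 1 cell, 126 cells in all, 0 carried more than 1 V name.

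Outside TRAV9, TRAJ31 chains were in 6 cells of dataset 1, 13 of dataset 2 and 24 without uveitis. They came from 6, 5 and 23 rearrangements, of which 6, 2 and 22 were seen in a single cell. The largest had 1, 7 and 2 cells, against 4, 40 and 7 cells for the largest TRAV9 rearrangement. Without uveitis, the families were TRAV7 with 5 rearrangements, TRAV12 with 4, TRAV13, TRAV14 and TRAV6 with 3 each, TRAV10 and TRAV4 with 2 each and TRAV8 with 1. In dataset 2, TRAV6 supplied 2 rearrangements, and TRAV12-2 (53616315 to 53616914) supplied 7 cells from 1 rearrangement, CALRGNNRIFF. The non-TRAV9 chains of the library without uveitis were thus spread over many V genes with about 1 cell each, TRAV13-1 being the most frequent with 3 cells from 3 rearrangements.

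Because TRAV9 genes are common in these libraries, the TRAJ31 chains were set beside the chains of other J genes. TRAV9 supplied 24 of 134 other rearrangements in dataset 1, or 17.9% (11.8 to 25.5%), 29 of 130 in dataset 2, or 22.3% (15.5 to 30.4%), and 45 of 449 without uveitis, or 10.0% (7.40 to 13.2%). In both uveitis libraries the TRAJ31 interval lay above the interval for the other J genes, and without uveitis they overlapped. Dataset 2 counted 1 CDR3 nucleotide sequence, that of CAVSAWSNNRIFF, under 3 V names. Counted by CDR3 nucleotide sequence alone, TRAV9 supplied 8 of 13 TRAJ31 sequences in dataset 1, or 61.5%, and 7 of 12 in dataset 2, or 58.3%. No interval was computed for this count, so the separation is shown only for rearrangements. Read the other way, TRAJ31 took 9 of 33 TRAV9 rearrangements in dataset 1, or 27.3%, 9 of 38 in dataset 2, or 23.7%, and 6 of 51 without uveitis, or 11.8%. By cells it took 34.7%, 68.2% and 16.5% of the TRAV9 chains.

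Over the 3 libraries, 33 J genes had at least 10 rearrangements. With the libraries pooled, TRAJ31 had the highest TRAV9 share of them, 24 of 58 or 41.4%. The 3 J genes with the nearest shares were TRAJ22 with 9 of 32, or 28.1%, TRAJ33 with 5 of 20, or 25%, and TRAJ43 with 5 of 22, or 22.7%. The J genes drew on the libraries in different proportions, and the pooled rank did not hold in each. Without uveitis, where 22 J genes had at least 10 rearrangements, TRAJ33 with 3 of 13, or 23.1%, and TRAJ23 with 6 of 27, or 22.2%, came before TRAJ31 with 20.7%, all within counting error of each other. These shares rest on few rearrangements, and since TRAJ31 was chosen with its abundance known, its rank is a description.

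**Figure D2:**
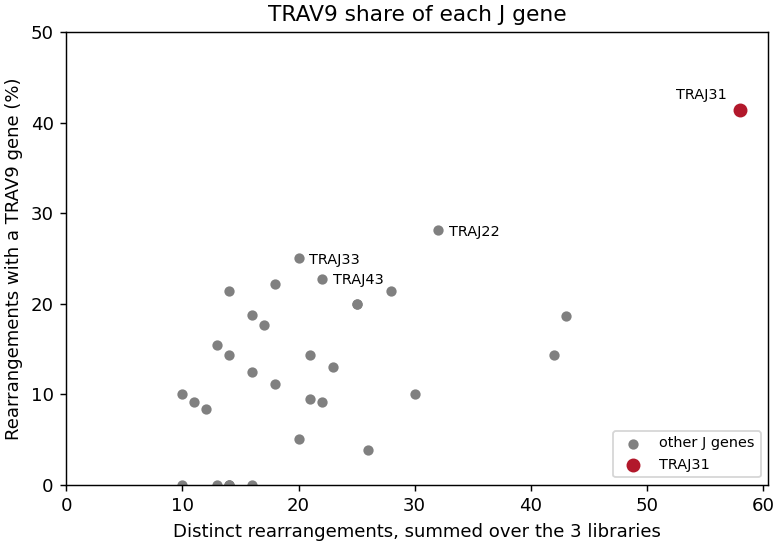
Each point is 1 of 33 J genes, with its number of distinct rearrangements summed over the 3 libraries on the x axis and the share of them that use a TRAV9 gene, in percent, on the y axis. In this pooled count TRAJ31 (dark red) has 58 rearrangements and a TRAV9 share of 41.4%, followed by TRAJ22 at 28.1%, but without uveitis alone its share of 20.7% lies below those of TRAJ33 and TRAJ23.

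TRAJ31 CDR3α loops ran from 10 to 14 amino acids. The median was 13 amino acids over 15 rearrangements of dataset 1, with a range of 10 to 13. It was also 13 over 14 rearrangements of dataset 2, ranging from 11 to 14, and 12 over the 29 without uveitis, ranging from 10 to 13. Other J genes had medians of 13, 14 and 14. A length of 14 or more was reached by 0 of 15, 1 of 14 and 0 of 29 TRAJ31 rearrangements, but by 49.3% (40.5 to 58.0%), 53.1% (44.1 to 61.9%) and 54.1% (49.4 to 58.8%) of the others. The J segment itself differs between these chains. The part of TRAJ31 that falls within the CDR3 has 26 bases, the fewest of the 42 J genes in which it could be found, with a median of 30 and a highest value of 35, and 6 of the genes had 26. Its part in the shorter loops was not tested.

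The loops with a TRAV9 gene were the most uniform, with a median of 13 in each library. All 9 TRAV9 rearrangements of dataset 2 had exactly 13, but they held only 6 distinct CDR3 amino acid sequences. With other V genes the median was 12.5, 12 and 12, and the lengths ran from 10 to 14.

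**Figure D3:**
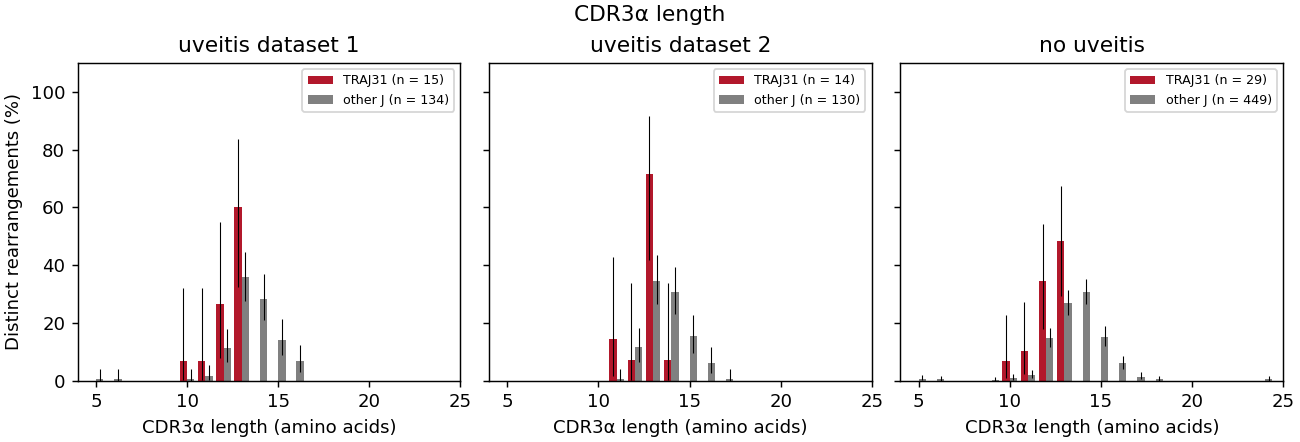
Bars give the share of distinct rearrangements, in percent, at each CDR3α length in amino acids, for TRAJ31 (dark red) and all other J genes (grey) in each library, with 95% Clopper-Pearson intervals. TRAJ31 peaks at 13 with 60, 71.4 and 48.3% of its rearrangements, and 1 of all its rearrangements is longer than that.

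Most of the J end was kept. Of the 26 germline bases, the medians matched were 23, 21.5 and 21. The CDR3 ended in the 7 J-encoded residues SNNRIFF in 18 of 24 TRAV9 rearrangements counted per library, or 75%, and in 24 of 34 with other V genes, or 70.6%. The longer end NSNNRIFF, which keeps the first complete codon of TRAJ31, was present in 2 of 24 and 10 of 34. All 24 TRAV9 rearrangements and 31 of the 34 others kept at least NNRIFF.

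**Figure D4:**
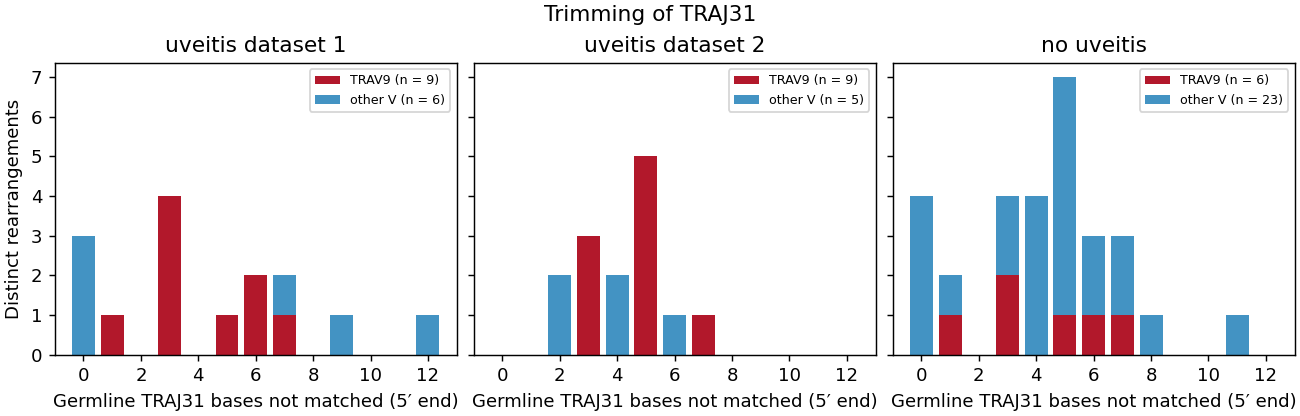
Bars give the number of distinct TRAJ31 rearrangements by how many bases of the germline TRAJ31 end were not matched in the CDR3, with TRAV9 chains in dark red and other V genes in blue. TRAV9 chains lie at 1 to 7 missing bases, while an untrimmed J end, at 0, is seen only with other V genes, in 3 rearrangements of dataset 1 and 4 without uveitis.

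How much of the V end was kept was compared between the V groups. The whole germline V end was kept in 19 of 24 TRAV9 rearrangements, or 79.2% (57.8 to 92.9%), and in 12 of 34 others, or 35.3% (19.7 to 53.5%). Some of the 24 and 34 are the same CDR3 under another V name or in another library, and counted once per distinct CDR3 nucleotide sequence the shares were 13 of 17, or 76.5% (50.1 to 93.2%), and 12 of 33, or 36.4% (20.4 to 54.9%), with intervals that overlapped. In dataset 2 the whole end was kept in all 9 TRAV9 rearrangements. Among chains of other J genes, TRAV9 kept its whole end in 49 of 98, or 50% (39.7 to 60.3%), and other V genes in 193 of 602, or 32.1% (28.34 to 35.95%). The TRAV9 interval for TRAJ31 thus overlapped that for other J genes.

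Between the V and J matches lay a median of 3, 4 and 3 bases. At least 1 base lay there in all 24 TRAV9 rearrangements, and 4 of 34 others had a direct joint. A count of 0 direct joints in 24 allows a share of up to 12.5%. The bases that follow a whole V end were compared with a mirror copy of that end. They held at least 2 mirrored bases in 16 of 24 TRAV9 rearrangements, or 66.7% (44.7 to 84.4%), against 3 of 34 with other V genes, or 8.82% (1.86 to 23.7%), and 23 of 98 TRAV9 chains of other J genes, or 23.5% (15.5 to 33.1%). Only a whole V end could score, which 19 of the 24, 12 of the 34 and 49 of the 98 had. These shares therefore include the difference in whole V ends given above. Counted once per distinct CDR3 nucleotide sequence, TRAV9 with TRAJ31 had 10 of 17, or 58.8% (32.9 to 81.6%), an interval that overlapped the 23 of 94, or 24.5% (16.2 to 34.4%), of TRAV9 with other J genes. In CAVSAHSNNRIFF all 3 bases between V and J were mirror copies, and in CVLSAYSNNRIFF 2 of 3 were. This is a match of letters, and random addition of the same bases looks alike.

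The residues before SNNRIFF in TRAV9 chains were partly shared between all 3 libraries. In dataset 2, Ala stood at the second position before it in 8 of 8 such rearrangements, and the position next to SNNRIFF held Trp in 4 (63 cells), His in 1 (37 cells), Tyr in 2 (3 cells) and Gly in 1 (1 cell). In dataset 1, Pro stood at the second position in 4 of 6 and Ala in 2 of 6, followed by His in 4 (9 cells), Trp in 1 (2 cells) and Asn in 1 (1 cell). Without uveitis, Ala stood at the second position in 2 of 4 (4 cells) and Leu and Met in 1 each, followed by His in 1 (3 cells) and by Asn, Trp and Tyr in 1 each (1 cell each). Trp, Tyr or His was thus next to SNNRIFF in most of these TRAV9 cells in every library, with Trp leading in dataset 2 and His in dataset 1 and without uveitis. Rearrangements with the same CDR3 under several V names are counted once per name here.

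With other V genes the residues were different. Of 17 such rearrangements without uveitis, the residue next to SNNRIFF was Gly in 5, Asn in 5 and Asp in 3, and His and Trp were seen in 1 each. In dataset 1 it was Asn, preceded by Arg, in 3 of 3. In dataset 2 it was Asn in 2, Gly in 1 and Ser in 1. Asn is the residue that the untrimmed J segment itself encodes at this position.

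Recurrence between libraries was counted over CDR3α amino acid sequences. Of 45 distinct TRAJ31 CDR3 amino acid sequences, 6 were found in more than 1 library, or 13.3% (5.05 to 26.8%), against 14 of 672 with other J genes, or 2.08% (1.14 to 3.47%), and these intervals did not overlap. The TRAJ31 sequences also came from more chains each, 179 for 45 sequences against 944 for 672, and the part of this in the recurrence was not tested. With TRAV9 genes alone it was 4 of 14. Datasets 1 and 2 shared 3 sequences, which is 25% of those in dataset 1 and 27.3% of those in dataset 2. Dataset 1 and the library without uveitis also shared 3, 25 and 10.3% of each, and dataset 2 and that library shared 2, 18.2 and 6.90% of each. Each pair of libraries thus shared 2 or 3 TRAJ31 sequences, whether or not both came from mice with uveitis.

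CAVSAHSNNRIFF, with TRAV9-4, was the only CDR3α of TRAJ31 in all 3 libraries. It was in 3 cells of dataset 1, 37 of dataset 2 and 3 without uveitis, which is 1.61, 11.2 and 0.621% of the cells with a TRA. Its nucleotide sequence was the same everywhere. The β chains were not. In dataset 2 all 37 cells paired it with TRBV31 (CDR3β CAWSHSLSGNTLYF), in dataset 1 it was paired with TRBV5 in 2 clonotypes, and without uveitis with TRBV4. The 2 clonotypes of dataset 1 were 1 cell each. The β chain of 1 of them was also in 13 other cells, 12 of them with a TRAV12D-3 and TRAJ13 chain.

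Dataset 1 had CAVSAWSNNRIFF in 2 cells, 1.08% (0.130 to 3.83%) of its total, and dataset 2 had it in 63, 19.1% (14.99 to 23.75%). Among the 483 cells without uveitis it was in 0, so its share there could be up to 0.621%. It was carried under the names TRAV9-1, TRAV9-4 and TRAV9D-1, and 64 of its 65 cells had the same nucleotide sequence. The other cell, of dataset 2, had the substitution G15T, with positions counted from 1 at the 5′ end of the CDR3 and the version with more cells written first. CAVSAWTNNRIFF, in 1 cell, differed from it by G20C.

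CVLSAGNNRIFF was in 3 cells of dataset 1 and 7 without uveitis and in 0 of 330 cells of dataset 2, which allows up to 0.909%. It used TRAV9-2 and was paired with TRBV20 and TRBJ2-2 in both libraries, with CDR3β loops of 14 residues that were not the same. Its nucleotide versions differed by C15T, and each library held 1 version. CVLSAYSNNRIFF, also with TRAV9-2, was in 2 cells of dataset 2 and 1 without uveitis with the same nucleotide sequence.

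Of the recurring sequences outside TRAV9, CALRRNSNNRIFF kept the J segment whole. It was carried in dataset 1 under the names TRAV12-2 and TRAV12-3, in 1 cell each, and without uveitis under TRAV12D-3 in 1 cell. The name TRAV12-2 is in doubt, since 6 bases of the CDR3 matched it and 11 matched TRAV12-3. The 2 cells of dataset 1 had the same nucleotide sequence on 1 UMI each, and the third differed by G12A. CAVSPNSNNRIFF was made by different V families, TRAV9-1 in 1 cell of dataset 1 and TRAV7N-4 in 2 cells of dataset 2, and its versions differed at 4 positions, A6T, T9G, T12C and C15G.

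Taking the libraries as a whole, 5 of 45 TRAJ31 CDR3 sequences had more than 1 nucleotide version, or 11.1% (3.71 to 24.1%), against 22 of 672 for other J genes, or 3.27% (2.06 to 4.91%), and the intervals overlapped. No sequence had more than 2. Within a library there was 1 such sequence of 12 in dataset 1, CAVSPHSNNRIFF with T15C, and 1 of 11 in dataset 2, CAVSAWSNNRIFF. There were 0 of 29 without uveitis, which allows up to 10.3%. In dataset 1 the minor version of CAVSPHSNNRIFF rested on 1 cell with 1 UMI, and in dataset 2 the minor version of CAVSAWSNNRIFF on 1 cell with 7 UMIs.

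The TRAJ31 clonotypes numbered 16, 21 and 27, among 22, 117 and 36 cells with both chains. Most were single cells, 13, 12 and 24 of them. In dataset 2 the 3 largest held 87 of the 117 cells, and all used TRAV9. They were TRAV9-4 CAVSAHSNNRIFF with TRBV31 in 37 cells, TRAV9-1 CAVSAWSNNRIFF with TRBV12-2 in 34 and TRAV9-4 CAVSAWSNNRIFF with TRBV19 in 16. The largest in dataset 1 was TRAV9-4 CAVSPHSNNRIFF with TRBV2 in 4 cells, and without uveitis it was TRAV9-2 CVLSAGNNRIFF with TRBV20 in 7 cells. Among clonotypes with another V gene, the largest were TRAV12-2 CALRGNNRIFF with TRBV31 (CDR3β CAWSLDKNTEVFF) in 5 cells of dataset 2 and TRAV12-1 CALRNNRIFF with TRBV19 (CDR3β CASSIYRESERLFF) in 2 cells without uveitis.

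**Figure D5:**
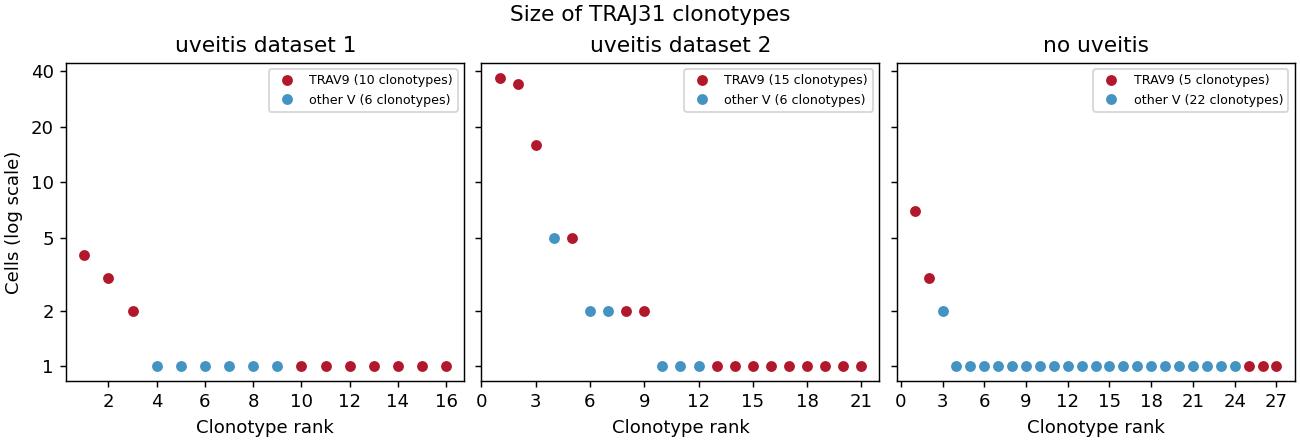
Each point is 1 TRAJ31 clonotype, ranked by size on the x axis, with its number of cells on a log y axis, in dark red for TRAV9 and blue for other V genes. In dataset 2 the 3 largest, with 37, 34 and 16 cells, all use TRAV9, while 22 of the 27 clonotypes without uveitis use other V genes and have 1 or 2 cells.

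The β chains paired with TRAJ31 were varied. They used 8 TRBV genes in dataset 1, 8 in dataset 2 and 13 without uveitis. In dataset 1 TRBV5 led with 6 of 16 clonotypes, or 37.5% (15.2 to 64.6%), against 7 of 138 clonotypes of other J genes, or 5.07% (2.06 to 10.2%). All 6 were single cells. The β chains with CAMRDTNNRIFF and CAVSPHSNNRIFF, and 1 of those with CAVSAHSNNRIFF, were also found with other α chains. TRBV2, TRBV20 and TRBV4 had 2 each. In dataset 2 TRBV4 led with 7 of 21, or 33.3% (14.6 to 57.0%), against 11 of 134, or 8.21% (4.17 to 14.2%), and TRBV3 had 4. These 7 clonotypes did not all have different β chains. A TRBV4 chain of 17 residues was counted with TRAV9-1 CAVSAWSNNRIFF and again with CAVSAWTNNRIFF. Another, of 13 residues, was counted with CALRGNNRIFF and again with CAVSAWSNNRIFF. The interval treats each clonotype as independent, so it understates the uncertainty of this share. Without uveitis TRBV20 led with 5 of 27, followed by TRBV13-1 with 4 and TRBV19 with 3. The leading TRBV gene was different in each library. Counted by cells, TRBV31 with 42 and TRBV12-2 with 34 led in dataset 2, from 2 clonotypes and 1.

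The CDR3β loops had a median of 14.5, 14 and 13 amino acids, with a range of 10 to 18 over the libraries, and those of other J genes had 14 in each. With TRAV9 chains the medians were 14.5, 15 and 14, and with other V genes 14.5, 13.5 and 13. TRBJ2 genes were used by 93.8% (69.8 to 99.8%), 71.4% (47.8 to 88.7%) and 70.4% (49.8 to 86.2%) of the clonotypes, against 74.6, 73.9 and 64.6% with other J genes.

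Some β chains of different TRAJ31 clonotypes were the same or close to each other. Among 14 pairs of clonotypes with the same TRBV, TRBJ and CDR3β length, 8 differed at no more than 2 residues, all within a library. Of these, 4 were the same β chain at the nucleotide level with another α chain, and 4 were close but different. In dataset 1, 3 TRBV5 and TRBJ2-5 chains of 14 residues were close but different. They were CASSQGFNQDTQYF with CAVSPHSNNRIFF, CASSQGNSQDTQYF with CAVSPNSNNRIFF and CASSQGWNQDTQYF with the TRAV6-3 chain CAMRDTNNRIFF, the last named after its value was seen. Each of these TRAJ31 clonotypes was 1 cell, and the β chains differed from each other at 1 or 2 residues. The TRAJ31 α chains were named TRAV9-2, the name doubted above, TRAV9-1 and TRAV6-3. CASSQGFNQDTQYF was also in 3 other cells, 2 of them with a TRAV9-1 and TRAJ22 chain. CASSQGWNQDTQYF was also in 1 other cell, with a TRAV9-1 and TRAJ22 chain. In dataset 2, a pair of TRBV19 chains of 15 residues, found with the same TRAV9-4 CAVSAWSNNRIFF, differed at 1 residue, in 16 cells and 1 cell. That 1 cell had a second productive TRA, and its β chain was also in 4 other cells with a TRAV13-1 and TRAJ38 chain.

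The same CDR3α was also found with unlike β chains. In dataset 2 the main nucleotide version of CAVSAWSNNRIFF was in 9 clonotypes with 5 TRBV genes when its V names are pooled by nucleotide sequence, 34 cells in the largest and 28 in the others. Its TRA rested on a median of 4 UMIs in the largest and 5 in the others (range 1 to 20). The others included 16 cells with TRBV19 and a TRBV4 clonotype of 5 cells that is not separate from the largest, as described below. Single cells with TRBV3, TRBV4 (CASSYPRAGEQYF), TRBV19 and TRBV20 rested on 1, 2, 5 and 3 TRA UMIs. Their β chains were also in 6, 17, 4 and 3 other cells, mostly or all with an α chain of another J gene. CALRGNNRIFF was with TRBV31 in 5 cells and with TRBV4 in 1 cell. Such sequences numbered 3 of 13 in dataset 1, or 23.1% (5.04 to 53.8%), 2 of 12 in dataset 2, or 16.7% (2.09 to 48.4%), and 0 of 29 without uveitis (up to 10.3%), against 12.2, 7.03 and 1.35% for other J genes.

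Some of these β chains belonged to other α chains as well. In dataset 2, the β chain of 9 of 21 TRAJ31 clonotypes, or 42.9% (21.8 to 66.0%), was found at the nucleotide level with another α chain in other cells, against 15 of 134 clonotypes of other J genes, or 11.2% (6.40 to 17.8%). In dataset 1 it was 5 of 16, against 40.6% for other J genes, and without uveitis 1 of 27, against 8.07%. Of these TRAJ31 clonotypes, 6, 4 and 1, in the order dataset 2, dataset 1 and no uveitis, were single cells. For example, the TRBV4 chain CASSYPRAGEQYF was in 1 cell with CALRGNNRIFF on 3 TRA UMIs and in 1 with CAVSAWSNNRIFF on 2 TRA UMIs, while 16 cells had it with a TRAV12-2 and TRAJ22 chain. The part of low TRA UMI counts in such pairs was not tested.

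In dataset 2, 25 of 118 TRAJ31 cells, or 21.2% (14.2 to 29.7%), had more than 1 productive TRB, against 1.89% of 212 cells with other J genes. Of these, 24 carried TRAV9-1 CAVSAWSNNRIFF with the same pair of β chains, TRBV12-2 of 18 residues on a median of 13.5 UMIs and TRBV4 of 17 residues on 6.5 UMIs. Of the 40 cells with this α chain, 37 had the TRBV12-2 chain and 26 the TRBV4 chain, 13 had only the first and 2 only the second. A cell with both is placed by the β chain with more UMIs, so the TRBV12-2 and TRBV4 clonotypes of this chain, with 34 and 5 cells, are not separate counts of clones. In dataset 1 and without uveitis, 1 TRAJ31 cell each had more than 1 TRB.

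A second productive TRA was in 2, 7 and 6 TRAJ31 cells, or 8.70, 5.93 and 15.8%, against 10.4, 9.43 and 16.2% of cells with other J genes. In 1, 4 and 6 cells TRAJ31 was not the TRA with the most UMIs. The TRAJ31 chain was of another V family than TRAV9 in the 2 such cells of dataset 1 and in all 6 without uveitis. In dataset 2, 6 of the 7 had a TRAV9 chain. Among all TRAJ31 cells, TRAV9 was used by 17 of 23, 105 of 118 and 14 of 38. The α chain that binds P2 in a cell with a second TRA is not known from these data.

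The TRAJ31 contigs rested on medians of 6, 4 and 6 UMIs, with highest values of 15, 20 and 32, against 5, 5 and 7 for other J genes. TRAV9 chains had medians of 7, 4 and 4 and other V genes 3.5, 4 and 8.5, so the V group with more UMIs was not the same in each library. A single UMI lay behind 3, 12 and 2 TRAJ31 contigs, or 13.04, 10.17 and 5.26%.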

How the data were processed

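Single-cell 5′ TCR libraries (10x Genomics kit version 1.1) were read with Cell Ranger version 3 against its GRCm38 VDJ reference by the authors, who deposited contigs of called cells with high confidence. The deposited UMI and read counts per contig are whole numbers without normalization. Of 6 samples in the series, the 3 TCR libraries were analysed and the mRNA libraries were not used here. The depth was 5302, 7439 and 21408 UMIs in contigs of uveitis dataset 1, uveitis dataset 2 and no uveitis.

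Productive TRA contigs with TRAJ31 were kept, from 1 UMI up. A cell was paired with its TRB of most UMIs, and droplets with more than 1 cell were not removed. Germline ends came from GENCODE M21, the V end being the longest match at the 5′ end of the CDR3 and the J end the longest at its 3′ end. Clonotypes had the same V, J and CDR3 nucleotide sequence in both chains. Shares have Clopper-Pearson intervals, and a count of 0 allows the share of 3 counts. Named V genes had at least 3 TRAJ31 cells in a library or were TRAV9 or in a family of at least 2 rearrangements. Named CDR3 were in more than 1 library, nucleotide version or clonotype, or in at least 3 cells, and named TRBV genes were the 3 most frequent in each library and partners of these CDR3. TRAV12-1 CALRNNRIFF, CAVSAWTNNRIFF, single β chains and the TRAV6-3 chain were added to these with values in view. The gene, lists and comparisons were chosen with earlier results of these data known. Alternatives were at least 2 UMIs per contig, the TRA of most UMIs alone, cells with 1 TRA and 1 TRB, cells with both chains, clonotypes in place of cells, other clonotype and rearrangement definitions, pooled nucleotide versions and each uveitis library left out. On simulated data, 12 of 12 shares were recovered. In 500 of 500 simulated joints at least the planted V and J ends were matched. A longest-match rule meets this by design, so recovery of trimmed, added or mirrored bases was not tested. Python 3.11.15 was used with pandas 2.3.3.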

Additional observations from a re-analysis of the deposited data

Results flagged for a closer look

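TRAJ31 also appeared in contigs that Cell Ranger did not call productive, which no comparison above uses. There were 6 in dataset 1, 5 in dataset 2 and 8 without uveitis, each above the 3 counts taken as the limit for a count of 0, which is 5.31% (1.97 to 11.2%), 15.2% (5.11 to 31.9%) and 3.77% (1.64 to 7.30%) of the contigs with a TRA J gene that were not productive. TRAV9 genes were named in 0, 3 and 1 of them, against 17, 105 and 14 of the productive ones, and TRAV13 genes in 3, 0 and 2. No CDR3 was given in 5, 1 and 5 of them, and 4 contigs of dataset 2 had the CDR3 nucleotide sequence of a productive TRAJ31 chain of that library.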

How the results depend on the processing

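Of 130 values recomputed under alternatives, 117 stayed within the 95% interval of the reported value, or within 1.5 times it for counts. Counting clonotypes in place of cells gave TRAJ31 13.5% in dataset 2 and 11.97% in the combined uveitis libraries, and gave TRAV9 71.4% of TRAJ31 in dataset 2, 67.6% combined and 18.5% without uveitis. Leaving out the 3 largest TRAJ31 clonotypes of dataset 2, an alternative chosen after seeing the data, gave 12.8% TRAJ31 cells and 58.1% TRAV9. Leaving out 1 uveitis library moved the combined TRAJ31 share of 27.3% to 12.4 to 35.8% and the TRAV9 share of 86.5% to 73.9 to 89.0%, the lower values being those without dataset 2. The share of CDR3 with more than 1 nucleotide version fell to 0% in dataset 1 with at least 2 UMIs and to 0% in dataset 2 with only cells of 1 TRA and 1 TRB, and rose to 41.7% in dataset 1 with versions pooled over the libraries. No paired analysis was possible, because the pools with and without uveitis were of different mice and no link between them is given. With 1 pool without uveitis and 14 to 29 TRAJ31 rearrangements in a library, depth limits all shares by rearrangement.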
